A study of Mus musculus with 23 samples.

Results

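Gastrocnemius muscle lacking emerin was compared between day 4 and day 3 after injection, gene by gene. The arrays were taken by their titles, which name emerin muscle of 4 days and of 3 days, and gave 3 arrays on day 4 and 3 on day 3, 6 of the 23 arrays in the series. The study sampled mouse gastrocnemius, a mixed calf muscle, from emerin KO (knockout), lamin A/C KO and control mice on day 0, when the muscle was not injected, and 3 and 4 days after injection. Its stated purpose was staged degeneration and regeneration of muscle in mice deficient in emerin or in lamin A/C. The groups used here are emerin KO on days 4 and 3, with 3 arrays each, emerin KO on day 0, with 2 arrays, lamin A/C KO on days 4, 3 and 0, with 3 arrays each, and control on days 4, 3 and 0, with 2 arrays each. The injected agent, the strain, the age and the sex are not given in the sources used here, and control arrays carry the lamin A line in their titles, so that control and emerin KO may differ in more than emerin. The labels do not say whether each array is a separate animal. The p-values therefore measure only how far these samples spread, which may be technical. Whole muscle was measured, in which fewer cells of a type and less RNA per cell cannot be told apart.

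Emerin is a protein of the inner nuclear membrane that binds the nuclear lamina, and its loss causes X-linked Emery-Dreifuss muscular dystrophy. After a muscle injury, dead fibers are cleared by macrophages while satellite cells divide as myoblasts that carry the myogenic factor Myod1. The myoblasts then leave the cell cycle, switch on the later factor Myog, fuse, and build new fibers that first carry embryonic and fetal forms of the contractile proteins. Days 3 and 4 lie at the passage between dividing myoblasts and the first new fibers.

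Values are MAS5 signals, Affymetrix's summary of the brightness of a gene's probe set, scaled alike on every array. A value after ± is a standard deviation (SD) where it follows a mean signal, and a standard error (SE) where it follows a log2 difference, which is always that of log2(signal + 32), day 4 minus day 3 unless another contrast is named. Adjusted p-values are from limma with Benjamini-Hochberg adjustment over 11164 genes, and a gene rose or fell where that p was under 0.05.

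Emd, the gene of emerin, gave 239, 169 and 213 on the day 4 arrays of emerin KO, against 153, 182 and 452 on the day 3 arrays. It was lower than in control on both days, by -1.61 on day 4 (adjusted p = 0.0017) and by -1.57 on day 3 (adjusted p = 4.7e-04), and did not pass between the days (-0.17 ± 0.24, adjusted p = 0.85). Lmna, the gene of lamins A and C, gave 3744, 4499 and 4431 on day 4, against 4874, 5334 and 3305 on day 3 (-0.07 ± 0.18, adjusted p = 0.93). The 9 skeletal muscle markers summed to 86047 to 94610 on the day 4 arrays, against 52368 to 67721 on the day 3 arrays, and 2 of the 9 rose, Mylpf and Atp2a1.

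The 3'/5' signal ratio of Gapdh, which climbs as RNA breaks down, was 2.89, 1.40 and 5.30 on the day 4 arrays of emerin KO, against 4.79, 6.09 and 3.62 on the day 3 arrays. The log2 ratio was lower on day 4 by -0.77, which 3 arrays against 3 do not separate (exact permutation test, two-sided p = 0.3, where 0.1 is the smallest p possible). On the 15 lamin A/C KO and control arrays it lay between 0.822 and 1.64. Its part in the results below was not tested except by the alternatives given beside them. Day 3 replicate 3 also stood apart, with correlations of 0.908 to 0.927 to the other 5 arrays across genes, while those 5 correlated at 0.948 to 0.978 with each other, and it had 18093 probe sets of at least 100, against 15125 to 16293 on the others.

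**Figure D1:**
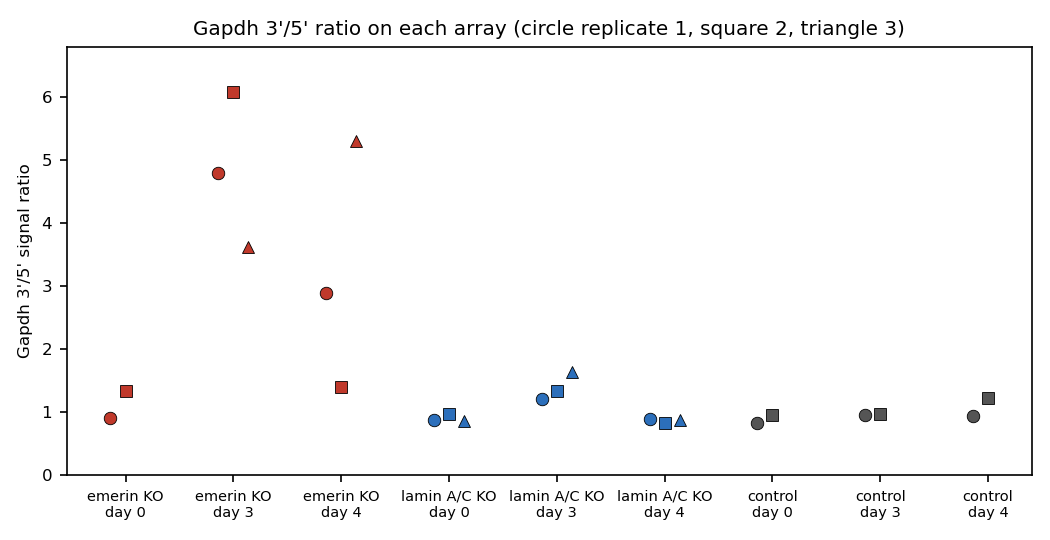
The Gapdh 3'/5' signal ratio of each array (vertical axis, no unit) by genotype and day, with circle, square and triangle for replicates 1, 2 and 3. The 3 emerin KO day 3 arrays and 2 of the 3 emerin KO day 4 arrays lie above the 15 lamin A/C KO and control arrays, which reach 1.64.

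In muscle without emerin more genes rose than fell between day 3 and day 4. On day 4 against day 3, 131 of 11164 genes passed the threshold, which is 1.17%, with 107 that rose (0.958%) and 24 that fell (0.215%). The 4 largest rises were those of Myh8, a perinatal myosin, Mfap4, a microfibril protein, Sln, the calcium pump inhibitor sarcolipin, and Igf2, a fetal growth factor, and the myogenic factors Myog and Myod1 stood among the falls. The size of the change had a median of 1.0 on the log2 scale over the rises, with a range of 0.46 to 2.70, and of 0.70 over the falls, with 53 rises and 2 falls of at least 2-fold, while the median over all genes tested was 0.01. At an unadjusted p under 0.05 there were 1243 genes. The day 4 and day 3 arrays did not overlap for any of the 131 genes, and they did not overlap for 1659 genes in all, or 14.9%. Where single genes below are said to have separate arrays on the 2 days, this holds for all 131. It describes the values and adds no support to a call. Leaving out day 4 replicate 1, day 3 replicate 2 or day 4 replicate 2 left 74, 85 and 87 genes, leaving out day 3 replicate 3 left 112, and with day 4 replicate 3, the array whose Gapdh ratio lies in the day 3 range, as the only day 4 array there were 31. All 131 genes kept their direction in each of these fits, which leaving out arrays could not change for genes whose arrays do not overlap.

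The embryonic and fetal forms of the contractile proteins, which new fibers make before the adult ones, had the highest median change of the 42 gene lists read. Of 15 such genes tested, 9 rose, 0 fell and 6 did not pass, with a median of 0.90. Myh8, the perinatal myosin heavy chain, gave 3496, 2720.2 and 3866 on the day 4 arrays, against 467, 626 and 386 on the day 3 arrays. The difference is 6.51-fold on the scale of signal + 32, the largest of the 107 rises (2.70 ± 0.18, adjusted p = 9.3e-09), and the lowest day 4 array lay well above the highest day 3 array. Myl4, the atrial and fetal myosin light chain, gave 8578, 9692 and 8797 on day 4, against 2905, 3112 and 3189.6 on day 3 (1.55 ± 0.18, adjusted p = 4.0e-05). Tnni1, the slow troponin I that developing fibers also carry, gave 10387, 11812 and 12535 on day 4, against 4705, 4804 and 3393 on day 3 (1.43 ± 0.16, adjusted p = 2.3e-05). For both genes every day 4 array was above every day 3 array. Casq2, the calsequestrin of cardiac, slow and developing muscle, gave 5025, 4415 and 5332 on day 4, against 1484, 1789 and 1401 on day 3 (1.64 ± 0.18, adjusted p = 2.3e-05). The day 4 arrays of Casq2 differed little among themselves beside that gap. The other members that rose, named after their values were seen, were the calcium pump Atp2a2 (1.33, with its 3 dimmer probe sets at -0.42, 0.21 and 1.77), the embryonic myosin Myh3 (1.12), the slow and cardiac troponin C Tnnc1 (1.0), the embryonic troponin T Tnnt2 (0.90) and the cardiac actin Actc1 (0.77). The count lay between 6 and 7 with any 1 emerin KO array left out, was 7 once the Gapdh ratio was a covariate, and was 5 with day 4 replicate 3 as the only day 4 array.

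**Figure D2:**
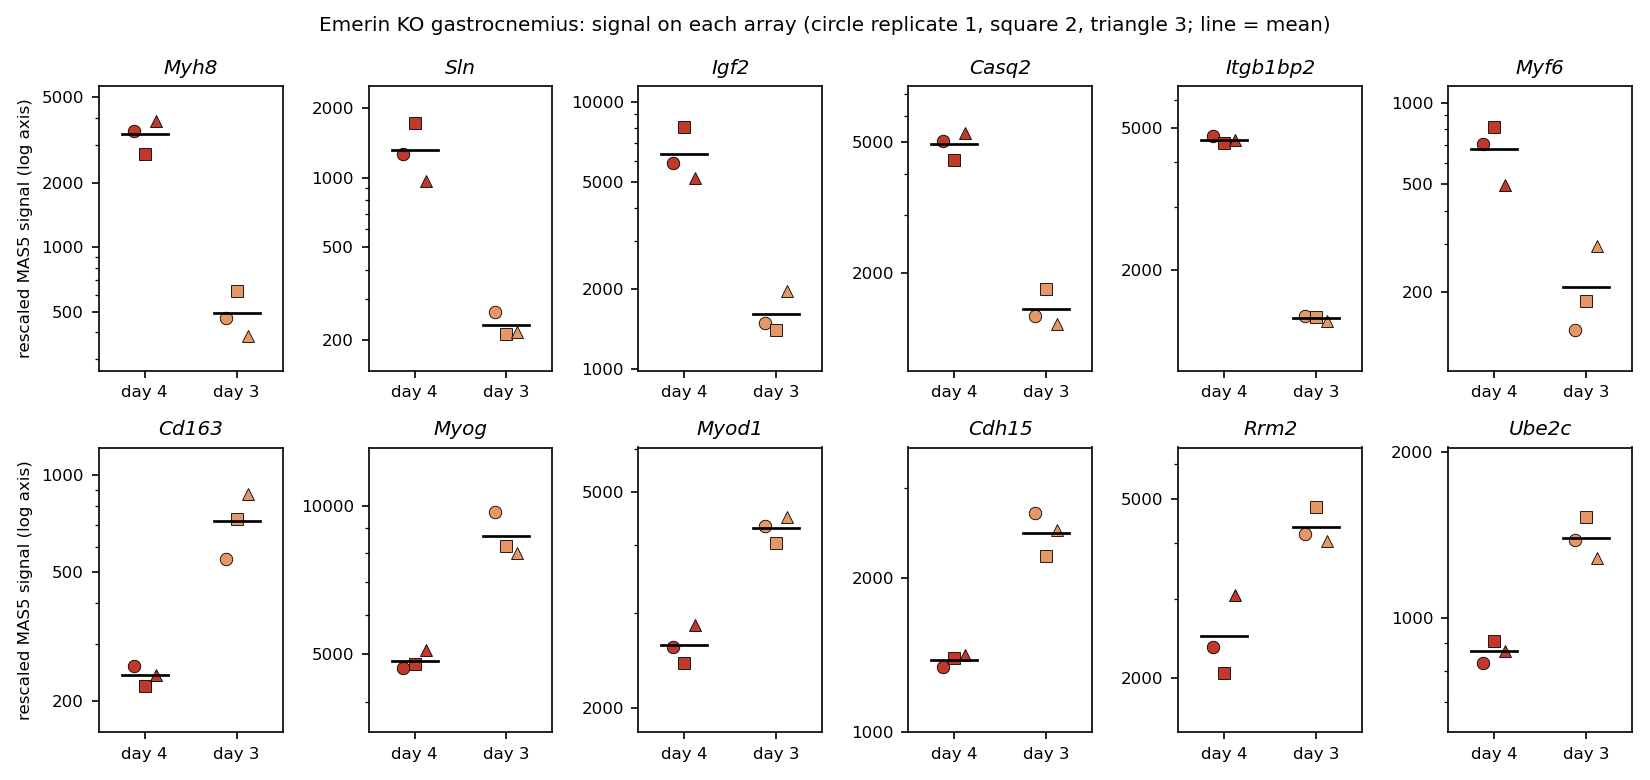
Rescaled MAS5 signal (vertical log axes, each with its own range) of 12 genes on each emerin KO array, day 4 left of day 3, with a line at the mean of each day. In the upper row, from Myh8 to Myf6, the 3 day 4 arrays lie above the 3 day 3 arrays, and in the lower row, from Cd163 to Ube2c, they lie below them.

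Genes of slow fibers and of mature fast fibers rose as well, while 3 slow myosin genes did not pass. Of 15 slow fiber genes tested, 7 rose, 0 fell and 8 did not pass, with a median of 0.89. Of these 7, Casq2, Tnni1, Atp2a2 and Tnnc1 also stand in the embryonic and fetal list, and Tnnt1 (0.89) and Myoz2 (1.28) are of slow fibers. Actn2, an actin-binding protein of the Z-disc, gave 5304, 5683 and 4842 on day 4, against 1993, 1916 and 1465 on day 3 (1.55 ± 0.18, adjusted p = 2.3e-05). Myh7, the slow myosin heavy chain, gave 272, 281 and 153 on day 4, against 362, 263 and 370.5 on day 3, with groups that overlap (-0.47 ± 0.22, adjusted p = 0.43). Its light chains Myl2 (-0.35 ± 0.35, adjusted p = 0.78) and Myl3 (-0.61 ± 0.26, adjusted p = 0.35) did not pass either. Both light chains were picked out after their values were seen.

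Of 25 mature fast contractile genes tested, 9 rose, 0 fell and 16 did not pass, with a median of 0.54. Myl1, the fast alkali light chain, gave 6407, 11120.5 and 3968 on day 4, against 1644, 2229.5 and 1732 on day 3 (1.81 ± 0.24, adjusted p = 1.1e-04). Day 4 replicate 2 was the highest of its group and replicate 3 the lowest, and all 3 lay above day 3. Lmod2, which lengthens thin filaments, gave 904, 1572 and 846 on day 4, against 386, 489.8 and 391 on day 3 (1.28 ± 0.22, adjusted p = 0.0022). Myom2, a protein of the M-band, gave 4645, 3649 and 5032 on day 4, against 1737, 1741 and 2236 on day 3 (1.21 ± 0.21, adjusted p = 0.0028). The groups of both genes stood clear of each other. Smpx, a small striated muscle protein, gave 1624, 1860.5 and 814 on day 4, against 630.5, 608 and 581 on day 3 (1.12 ± 0.20, adjusted p = 0.0035). Mylpf, the fast regulatory light chain and one of the skeletal muscle markers, gave 10664, 14557 and 12888 on day 4, against 5617, 6868 and 7683 on day 3 (0.92 ± 0.17, adjusted p = 0.0044). Myoz1 (1.10), Myom1 (0.96), Tpm1 (0.87) and Myh1 (0.59) were the other members that rose. The adult fast myosin Myh4 (0.54 ± 0.25, adjusted p = 0.43), creatine kinase Ckm (0.63 ± 0.18, adjusted p = 0.1) and skeletal actin Acta1 (0.53 ± 0.15, adjusted p = 0.11) were higher in the fit without passing. Between 6 and 9 members rose with any 1 emerin KO array left out, 6 of them without day 3 replicate 1, and 1 rose with day 4 replicate 3 as the only day 4 array.

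Calcium release and uptake, by which a nerve signal becomes a contraction, lay higher on day 4 in all but 1 of its genes. Of 19 genes of calcium handling and excitation-contraction coupling tested, 8 rose, 0 fell and 11 did not pass, with a median of 0.72, and 18 of the 19 were above 0. Sln encodes sarcolipin, a small inhibitor of the calcium pump, and gave 1264, 1719.9 and 964 on day 4, against 264, 212 and 217 on day 3 (2.33 ± 0.19, adjusted p = 3.3e-07). The pump of fast fibers, Atp2a1, gave 14063, 14327 and 15456 on day 4, against 7991, 8825 and 7165 on day 3 (0.87 ± 0.17, adjusted p = 0.0091). In both, the lowest day 4 array exceeded the highest day 3 array. Hrc, which binds calcium inside the sarcoplasmic reticulum, gave 3378, 2753 and 3309 on day 4, against 1616, 1569.7 and 1117 on day 3 (1.13 ± 0.15, adjusted p = 1.1e-04). Casq1, the calsequestrin of fast fibers, gave 6019, 5721 and 6383 on day 4, against 2611, 3582 and 2528 on day 3 (1.06 ± 0.16, adjusted p = 6.6e-04). Their day 3 arrays all stayed under the day 4 arrays. The voltage sensor Cacna1s (0.94), its subunit Cacnb1 (0.86) and the release channel Ryr1 (0.72) rose too. Atp1b4, related to the beta subunits of the sodium pump and found at the nuclear membrane of muscle in placental mammals, gave 258, 435 and 179 on day 4, against 50.2, 34.3 and 139 on day 3 (1.65 ± 0.28, adjusted p = 0.0027). On day 3, 2 of its arrays lie under the minimum signal of 100, and its log2 difference ranged from 1.11 to 2.05 over the alternatives. With day 4 replicate 3 as the only day 4 array, 3 of the 8 were left.

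Further large rises came from outside these lists. Itgb1bp2 encodes melusin, a muscle protein that binds beta 1 integrin at the costamere, and gave 4745, 4545 and 4622 on day 4, against 1483, 1481 and 1439.7 on day 3 (1.64 ± 0.14, adjusted p = 4.4e-07). The 3 arrays of a day lay close together beside the gap between the days. Stbd1, which tethers glycogen, gave 824, 1147 and 826 on day 4, against 254, 293 and 251 on day 3 (1.68 ± 0.16, adjusted p = 2.3e-06). Fgfrl1, a receptor that binds fibroblast growth factors and lacks the kinase domain, gave 825, 809.9 and 839 on day 4, against 281, 209 and 252 on day 3 (1.62 ± 0.19, adjusted p = 3.3e-05). Cldn2, a claudin of tight junctions, gave 364, 368 and 303 on day 4, against 136, 112 and 40.8 on day 3 (1.64 ± 0.24, adjusted p = 3.6e-04), with 1 day 3 array under 100, and its other, somewhat dimmer probe set read only 0.16. Each of the 4 had separate groups on the 2 days. Among the acetylcholine receptor and neuromuscular junction genes, of which 1 of 15 rose and 1 fell, Ache, which breaks down acetylcholine, gave 304, 359 and 266 on day 4, against 150.5, 127 and 36.1 on day 3 (1.43 ± 0.30, adjusted p = 0.014). The gene that fell in that list is Myog. Sgca, the alpha subunit of the sarcoglycans, was the 1 of 18 dystrophin complex genes that rose, with 1122, 1065 and 979 on day 4, against 685, 547 and 609 on day 3 (0.76 ± 0.16, adjusted p = 0.02), and the call ended with any of 4 emerin KO arrays left out, as did that of Ache with any of 3. Both calls also ended with the Gapdh ratio as a covariate (adjusted p = 0.12 for Sgca and 0.059 for Ache).

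Among secreted growth factors the rise of Igf2 stood out. Of 37 genes of the TGF-beta, BMP, Wnt and IGF axis tested, 4 rose, 0 fell and 33 did not pass, with a median of 0.22. Igf2, the fetal insulin-like growth factor that myoblasts secrete as they differentiate, gave 5890.2, 8063 and 5192 on day 4, against 1482, 1396 and 1954 on day 3 (1.96 ± 0.17, adjusted p = 4.2e-07). Dlk1, a membrane protein with EGF repeats, gave 1007, 1337 and 619 on day 4, against 316, 289 and 404 on day 3 (1.42 ± 0.30, adjusted p = 0.015). Both genes are imprinted, and so are Plagl1 (1.29 ± 0.16) and the noncoding Rian (1.11 ± 0.23), which rose too and were picked out after their values were seen. No list of imprinted genes was read, so the share of them that rose is not given. Ptn, the heparin-binding factor pleiotrophin, gave 472, 674 and 463 on day 4, against 165, 229 and 218 on day 3 (1.26 ± 0.23, adjusted p = 0.0044), and its other, dimmer probe set read only 0.14. Ltbp2, which lies in microfibrils, gave 1383, 1412 and 1609 on day 4, against 912, 988 and 698 on day 3 (0.75 ± 0.15, adjusted p = 0.0075). The call of Dlk1 ended with any of 4 emerin KO arrays left out, and those of Dlk1 and Ptn with the Gapdh ratio as a covariate.

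Matrix genes rose in part. Of 45 collagens and other matrix genes tested, 6 rose, 0 fell and 39 did not pass, and 43 were above 0 with a median of 0.44, beside 5713 of 11164 above 0 over all genes. The genes that rose are chiefly matricellular and not the main fibrillar collagens. Postn, periostin, gave 4238, 6901 and 3869 on day 4, against 1552, 2098 and 1627 on day 3 (1.46 ± 0.20, adjusted p = 2.1e-04). Tnc, tenascin C, gave 2243, 4162 and 2379.5 on day 4, against 1219, 1273 and 1136 on day 3 (1.20 ± 0.21, adjusted p = 0.0027), the highest array being day 4 replicate 2 as for Postn. Fbn2, the fibrillin of developing tissue, gave 538, 316 and 484 on day 4, against 164, 156 and 203 on day 3 (1.19 ± 0.25, adjusted p = 0.014). Ccn3, a matricellular protein, gave 372, 489 and 269.7 on day 4, against 181, 138 and 174 on day 3 (1.03 ± 0.22, adjusted p = 0.016). The calls of Fbn2 and Ccn3 each ended with any of 3 emerin KO arrays left out. That of Ccn3 also ended with the Gapdh ratio as a covariate (adjusted p = 0.16), and its other, dimmer probe set read 0.44. Thbs2 (0.98) and Col18a1 (0.57) complete the 6. Col1a1, the main chain of type I collagen, gave 13917, 16577 and 11036 on day 4, against 10402, 9995 and 10162 on day 3 and did not pass (0.42 ± 0.17, adjusted p = 0.34). Mfap4, a microfibril protein outside the list, gave 349, 677 and 342 on day 4, against 23.4, 24.4 and 168 on day 3 (2.45 ± 0.43, adjusted p = 0.0028). On day 3, 2 of its arrays lie under 100, and its log2 difference ran from 1.78, with the Gapdh ratio as a covariate, to 3.06 over the alternatives. The number of matrix genes that rose was 10 without day 4 replicate 3, 3 without day 3 replicate 2 and 0 with day 4 replicate 3 as the only day 4 array, while the list's median stayed between 0.36 and 0.44 with any 1 emerin KO array left out. The summed signal of the 14 fibroblast markers was 34171 to 41681 on day 4, against 27525 to 34892 on day 3, with 0 of the 14 past the threshold, and its part in the matrix result was not tested.

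In each list of energy metabolism 1 or 2 genes rose, where 0.958% of all genes tested rose. Of 55 oxidative phosphorylation genes tested, 2 rose, 0 fell and 53 did not pass, with a median of 0.17. The 2 are the muscle isoforms Cox8b, with 1482, 1661 and 979 on day 4, against 559, 427 and 538 on day 3 (1.36 ± 0.19, adjusted p = 1.9e-04), and Cox7a1 (0.91 ± 0.22, adjusted p = 0.042). The call of Cox7a1 ended with any of 4 emerin KO arrays left out and with the Gapdh ratio as a covariate (adjusted p = 0.17). Of 35 genes of the TCA cycle and fatty acid oxidation 1 rose, Fabp3, the fatty acid carrier of muscle and heart, with 1219, 2202 and 829 on day 4, against 476, 492 and 456 on day 3 (1.40 ± 0.23, adjusted p = 0.0019). Of 28 glycolysis and glycogen genes 2 rose, both muscle isoforms, Pgam2 (1.24 ± 0.17, adjusted p = 1.4e-04) and Pfkm (0.77 ± 0.15, adjusted p = 0.0084).

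The transcription factors that drive myoblasts into differentiation did not move one way. Of 25 myogenic regulators tested, 2 rose, 3 fell and 20 did not pass, with a median of -0.02. Myf6, the late member of the MyoD family that persists in adult fibers, gave 706, 816 and 499.6 on day 4, against 145, 185 and 296 on day 3 (1.57 ± 0.21, adjusted p = 1.1e-04). Mef2c, a partner of that family at muscle genes, gave 1978, 2484 and 1730.5 on day 4, against 1066, 975 and 812 on day 3 (1.09 ± 0.14, adjusted p = 1.3e-04). Both were higher on every day 4 array than on any day 3 array. Myog, myogenin, gave 4677, 4766 and 5098 on day 4, against 9729, 8292 and 8004 on day 3 (-0.83 ± 0.16, adjusted p = 0.0091). Myod1, the factor of committed myoblasts, gave 2592, 2423 and 2846 on day 4, against 4326, 4038 and 4505 on day 3 (-0.71 ± 0.14, adjusted p = 0.011). Cdh15, the M-cadherin by which satellite cells and myoblasts adhere, gave 1343, 1397 and 1413 on day 4, against 2676, 2207 and 2481 on day 3 (-0.81 ± 0.14, adjusted p = 0.0028). All 3 were lower on every day 4 array, and the calls of Myog and Myod1 each ended with either of 2 emerin KO arrays left out. The fourth member of the family, Myf5 (0.53 ± 0.29, adjusted p = 0.53), and the satellite cell factor Pax7 (0.17 ± 0.24, adjusted p = 0.85) did not pass. With day 4 replicate 3 as the only day 4 array none of the 25 passed.

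Among 20 genes of fusion and myoblasts, 2 rose and 1 fell. Capn3, the muscle calpain, gave 697, 775 and 484 on day 4, against 216, 214 and 246 on day 3 (1.39 ± 0.17, adjusted p = 7.2e-05). Cd81, a tetraspanin of the cell surface, rose by the least of all genes that passed (0.46 ± 0.10, adjusted p = 0.028), and its call ended with any 1 of the 6 arrays left out. The call ended too with the Gapdh ratio as a covariate (adjusted p = 0.12). The gene that fell is Cdh15. The fusion protein myomaker, Mymk, did not pass (0.34 ± 0.20, adjusted p = 0.56).

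E-boxes bind the MyoD family and MEF2 sites bind Mef2c. Promoters of 2 genes that rose and 2 that fell are shown as examples, chosen by name and not at random. Whether these factors act on them was not tested. Each sequence is the 300-base window from 250 bases before to 50 bases after the annotated start, from RefSeq on GRCm38.p6, plus strand. Capitals mark matches to the E-box CANNTG and to the MEF2 motif YTAWWWWTAR, both of which read alike on both strands. In the motif Y is C or T, W is A or T and R is A or G, and only full matches were marked. The windows are chr11:67276874-67277173 for Myh8, chr3:102086165-102086464 for Casq2, chr1:134289754-134290053 for Myog and chr8:122848124-122848423 for Cdh15.
Myh8: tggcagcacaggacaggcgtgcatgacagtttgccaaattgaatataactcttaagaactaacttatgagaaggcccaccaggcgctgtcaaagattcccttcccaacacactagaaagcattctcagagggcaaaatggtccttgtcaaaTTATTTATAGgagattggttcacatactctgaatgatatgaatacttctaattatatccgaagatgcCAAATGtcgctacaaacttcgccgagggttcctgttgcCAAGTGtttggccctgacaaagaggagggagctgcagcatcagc
Casq2: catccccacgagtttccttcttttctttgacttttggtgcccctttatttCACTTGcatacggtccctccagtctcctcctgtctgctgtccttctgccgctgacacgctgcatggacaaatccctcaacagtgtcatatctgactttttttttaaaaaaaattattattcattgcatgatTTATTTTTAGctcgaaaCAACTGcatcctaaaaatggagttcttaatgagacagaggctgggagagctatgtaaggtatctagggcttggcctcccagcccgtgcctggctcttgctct
Myog: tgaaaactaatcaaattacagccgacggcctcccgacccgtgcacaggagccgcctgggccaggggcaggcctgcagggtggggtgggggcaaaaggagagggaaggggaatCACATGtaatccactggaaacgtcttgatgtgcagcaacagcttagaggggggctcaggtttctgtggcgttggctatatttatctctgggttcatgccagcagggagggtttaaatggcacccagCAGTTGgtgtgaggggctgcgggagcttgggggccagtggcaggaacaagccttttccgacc
Cdh15: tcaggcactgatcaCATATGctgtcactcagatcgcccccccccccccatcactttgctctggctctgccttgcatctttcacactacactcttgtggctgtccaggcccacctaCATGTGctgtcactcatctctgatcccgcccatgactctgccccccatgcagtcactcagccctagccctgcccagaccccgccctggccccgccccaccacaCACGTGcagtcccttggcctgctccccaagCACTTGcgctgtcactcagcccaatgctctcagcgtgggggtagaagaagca
With the start counted as 0, Myh8, which rose, holds E-boxes at -32 and 6 and a MEF2 motif at -99. Casq2, which rose, holds E-boxes at -200 and -52 and a MEF2 motif at -69. Myog, which fell, holds E-boxes at -138 and -12, and Cdh15, which fell, holds 4 at -236, -135, -32 and -2. Neither window has a full match to the MEF2 motif as written here. The Myog window holds ctatatttat, which departs from that motif only at its last base, so a MEF2 site there is not excluded. No E-box overlaps a MEF2 match in these 4 windows. Of all 32851 promoter windows in the table, 72.3% hold an E-box and 3.19% the MEF2 motif. Of the 107 genes that rose 87 have a window, and 75.0% of their 124 windows hold an E-box and 8.06% the MEF2 motif. Myh8 and Casq2 hold the MEF2 motif, as only 10 of the 124 windows do, and are not typical of the rises. Of the 24 genes that fell 20 have a window, and 63.6% of their 22 windows hold an E-box and 0 of 22 the MEF2 motif. A match is a description of the sequence and not of binding.

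Genes of dividing cells lay lower on day 4, with 2 of each list past the threshold, where 0.215% of all genes tested fell. Of 40 DNA replication genes tested, 0 rose, 2 fell and 38 did not pass, with a median of -0.27 and 8 above 0. Rrm2, the subunit of ribonucleotide reductase made in S phase, gave 2339, 2048 and 3062 on day 4, against 4182, 4815 and 4049 on day 3 (-0.82 ± 0.14, adjusted p = 0.0029). Nasp, a histone chaperone, gave 412, 529.6 and 468 on day 4, against 875, 921 and 731 on day 3 (-0.80 ± 0.20, adjusted p = 0.049). Of 45 mitosis genes tested, 0 rose, 2 fell and 43 did not pass, with a median of -0.27 and 10 above 0. Ube2c, the ubiquitin-conjugating enzyme of mitotic exit, gave 827, 907 and 869.7 on day 4, against 1382, 1523 and 1285 on day 3 (-0.66 ± 0.12, adjusted p = 0.0035). Stmn1, which unsettles microtubules, gave 3354, 3559 and 4156 on day 4, against 5746, 6437 and 5241 on day 3 (-0.65 ± 0.14, adjusted p = 0.022). The calls of Nasp and Stmn1 ended with any of 6 and of 4 emerin KO arrays left out. Both also ended with the Gapdh ratio as a covariate (adjusted p = 0.16 and 0.14). Of the 28 genes of the Rb/E2F pathway, the gate of S phase, 0 rose and 0 fell, with a median of -0.06.

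The nuclear envelope list held 1 gene of 18 that fell, Lmnb2, the gene of lamin B2, with 271, 339.5 and 226 on day 4, against 443, 606 and 597 on day 3 (-0.90 ± 0.22, adjusted p = 0.049). Its call ended with any 1 of the 6 arrays left out and with the Gapdh ratio as a covariate (adjusted p = 0.078). Another 3 genes, of RNA handling, fell on their brightest probe set, the one tested, and read closer to 0 on each of the others. The splicing factor Srsf1 gave 1718, 1649 and 1850.0 on day 4, against 3039, 3297 and 2896 on day 3 (-0.81 ± 0.17, adjusted p = 0.013), and its 5 other probe sets read -0.36 to 0.05. The RNA-binding protein Celf1 (-0.72 ± 0.11, adjusted p = 0.0013) read -0.45 to 0.11 on its 4 others, and the nucleolar fibrillarin Fbl (-0.75 ± 0.15, adjusted p = 0.01), the 1 of 27 ribosome biogenesis genes that fell, read 0.02 on its other one. The call of Srsf1 ended with any of 3 emerin KO arrays left out and that of Fbl with either of 2. Both calls also ended with the Gapdh ratio as a covariate (adjusted p = 0.092 and 0.079). Purb, a repressor that binds single-stranded DNA, also fell (-0.70 ± 0.17, adjusted p = 0.046), and its call ended with any 1 of the 6 arrays left out. Its other probe sets read -0.79, -0.05 and -0.81, the last of them dim. Of 37 amino acid and ER stress genes 2 fell, both in the making of serine and glycine, Phgdh (-0.66 ± 0.15, adjusted p = 0.028) and Shmt2 (-0.50 ± 0.12, adjusted p = 0.042). These calls ended with any of 5 arrays left out for Phgdh and with any of 6 for Shmt2, and both ended with the Gapdh ratio as a covariate (adjusted p = 0.051 and 0.079). The other probe sets of Shmt2, all dimmer, read -0.31, -0.40 and 0.04. Of 20 heat shock proteins 1 fell, the mitochondrial chaperonin Hspd1 (-0.49 ± 0.11, adjusted p = 0.033), and of 28 immediate early and MAPK genes 1 rose, the nuclear receptor Nr4a1 (1.16 ± 0.25, adjusted p = 0.022). The calls of Hspd1 and Nr4a1 ended with any of 4 and of 3 emerin KO arrays left out. That of Nr4a1 also ended with the Gapdh ratio as a covariate (adjusted p = 0.20). Scg3, a granin of secretory granules, gave 18.1, 15.1 and 19.2 on day 4, against 116, 73.6 and 307 on day 3, and since every day 4 array lies under the minimum signal of 100 no fold change is given (adjusted p = 0.033).

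Among the markers of cells other than muscle fibers 1 gene passed. Of 42 macrophage genes tested, 0 rose, 1 fell and 41 did not pass, with a median of -0.02, and their summed signal was 165618 to 180810 on day 4, against 160047 to 188295 on day 3. Cd163, the scavenger receptor of resident and alternatively activated macrophages, gave 257, 222 and 239.5 on day 4, against 548, 731 and 873 on day 3 (-1.44 ± 0.24, adjusted p = 0.0019). Clec10a, a lectin of similar macrophages and of dendritic cells, lies outside the list and gave 578, 595 and 556 on day 4, against 854, 1097 and 1060.0 on day 3 (-0.76 ± 0.16, adjusted p = 0.017). Both were lower on every day 4 array. The call of Clec10a ended with any of 3 emerin KO arrays left out and with the Gapdh ratio as a covariate (adjusted p = 0.053). None of the 4 defining macrophage markers passed, with Adgre1 at 1491 to 2043 on day 4, against 1303 to 1413 on day 3, Cd68 at 3746 to 4314, against 4231 to 4576, Csf1r at 9759 to 11735, against 11225 to 11578, and Mpeg1 at 2865 to 4683, against 3159 to 3705. None of the neutrophil (13), lymphocyte (16), endothelial (19), adipocyte (13), erythroid (4), Schwann cell and nerve (11) or fibroblast (14) genes passed, numbers of genes tested being in parentheses. Summed signals of day 4, against day 3, were 4278 to 8980.5, against 4680 to 5853 for neutrophil markers, 9592 to 10997, against 9664 to 10493 for endothelial markers, and 13647 to 16556, against 16405 to 20082 for adipocyte markers. The T cell marker Cd3e stayed under 100 on all 6 arrays. No member passed in the lists of interferon response (29 genes, median -0.06), chemokines and cytokines (38, 0.12), complement and antigen presentation (23, 0.18), matrix proteases and inhibitors (27, 0.10), lysosome (26, 0.03), proteasome (32, 0.04), cytosolic ribosome (32, -0.06), p53 targets (20, 0.07), hypoxia, heme and oxidative stress (24, 0.01), circadian clock (17, 0.01), atrophy and autophagy (17, -0.02) or the cytoskeleton of moving cells (25, -0.02).

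**Figure D3:**
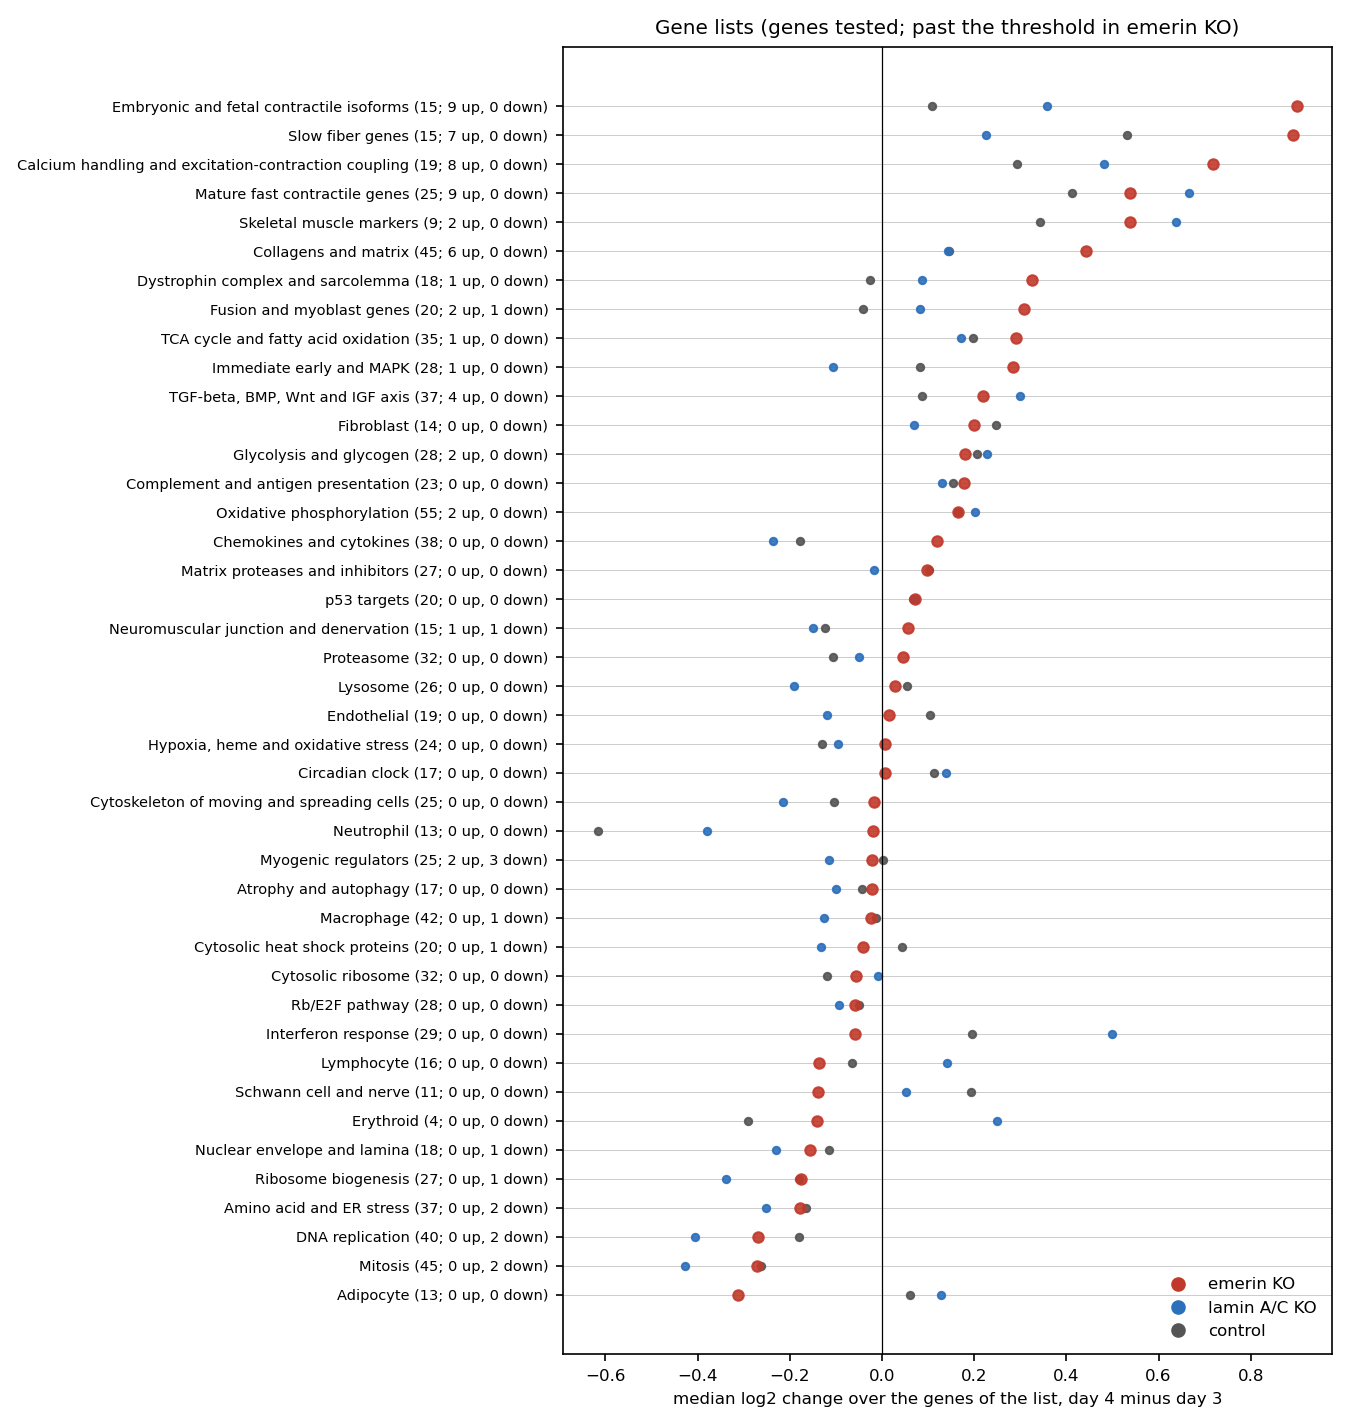
Median log2 change, day 4 minus day 3 (horizontal axis), over the genes of each list in emerin KO, lamin A/C KO and control, with the number of genes tested and of those past the threshold in emerin KO. The contractile, slow fiber and calcium handling lists lie highest in emerin KO, with medians of 0.90, 0.89 and 0.72, and the DNA replication and mitosis lists near -0.27.

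The same interval was read in the other mice to place these changes. In lamin A/C KO, 144 genes rose and 84 fell, 2.04% of those tested, and in control 5 rose and 0 fell, 0.0448%, with 1665 and 531 genes at an unadjusted p under 0.05. No array is shared between these comparisons and that in emerin KO, but control has 2 arrays a day and so fewer calls at a given size of change. Of the 107 genes that rose in emerin KO, 38 also rose in lamin A/C KO, which is 35.5% of the rises in emerin KO and 26.4% of those in lamin A/C KO, and 102 had the same sign there with a median of 0.49. In control 2 of them rose, Myh8 and Atp1b4, and 89 had the same sign, with a median of 0.29. Over all 11164 genes, 5206 lay above 0 in lamin A/C KO and 5121 in control. Of the 24 genes that fell, 7 also fell in lamin A/C KO, 29.2% of the falls in emerin KO and 8.33% of those in lamin A/C KO, and 23 had the same sign there, against 18 in control. Of all 11164 genes, 5958 lay below 0 in lamin A/C KO and 6043 in control. Over all 11164 genes the change in emerin KO correlated with that in lamin A/C KO at a Pearson r of 0.26 and with that in control at -0.02, a description across genes, which are not independent replicates. The 131 genes were chosen by their change in emerin KO, and smaller medians elsewhere are partly set by that choice. The mature fast contractile list had medians of 0.54 in emerin KO, 0.67 in lamin A/C KO and 0.41 in control, and 8 of its genes rose in lamin A/C KO. The embryonic and fetal list had medians of 0.90, 0.36 and 0.11 in the same order, and the collagen and matrix list 0.44, 0.14 and 0.15.

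**Figure D4:**
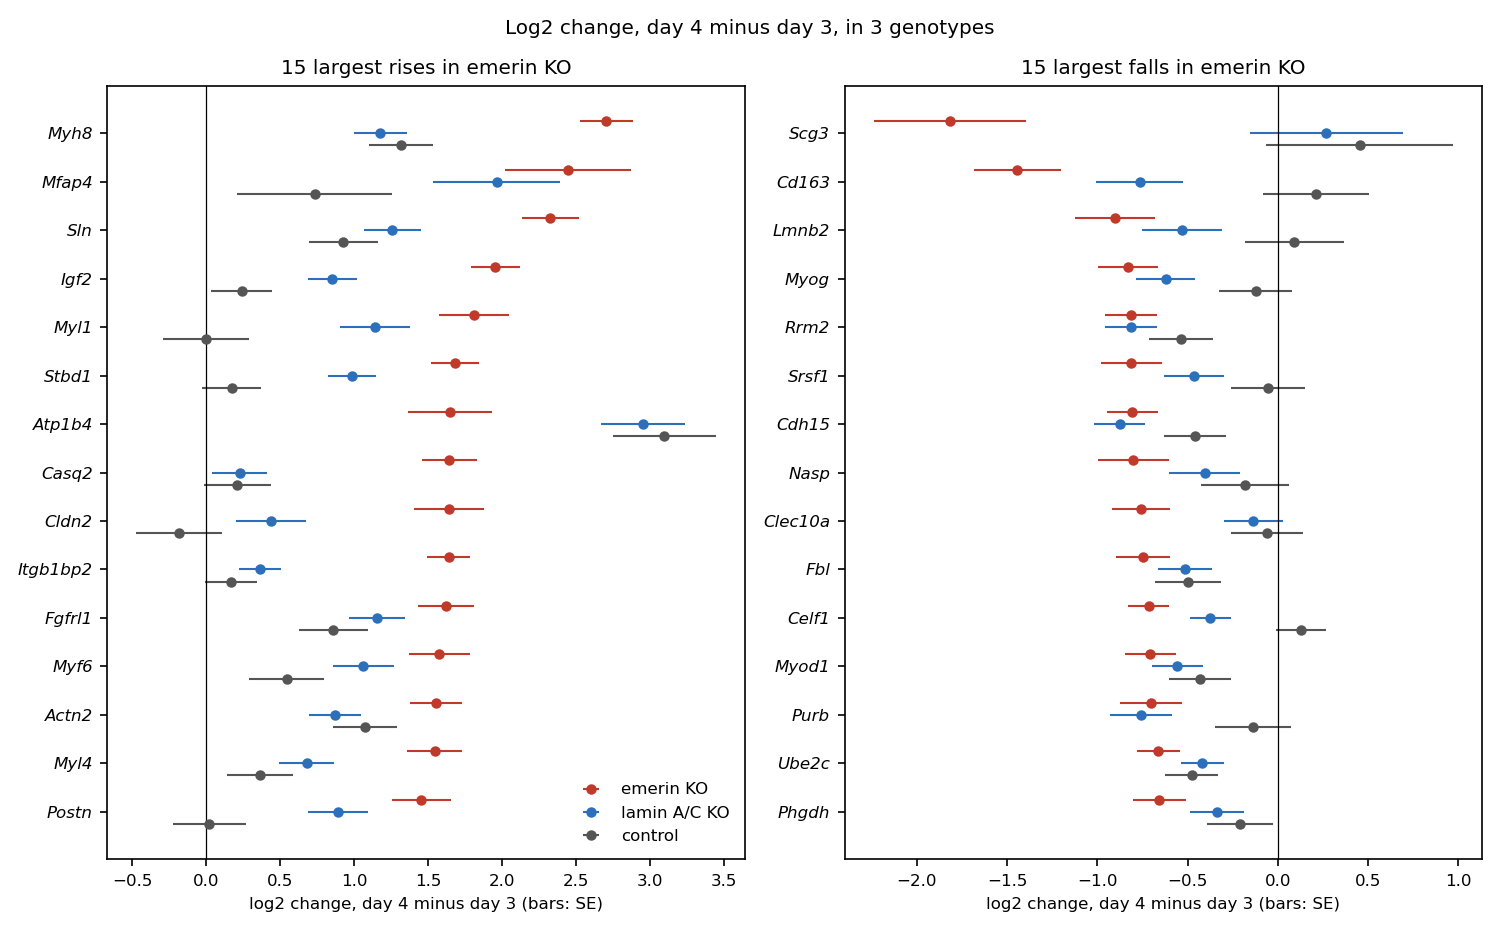
Log2 change, day 4 minus day 3 (horizontal axes, bars for the SE), of the 15 largest rises and 15 largest falls of emerin KO, in emerin KO, lamin A/C KO and control. Myh8 rose in all 3 genotypes, while Itgb1bp2 lies at 1.64 in emerin KO, 0.36 in lamin A/C KO and 0.17 in control.

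The difference between the change in emerin KO and that in control passed for 5 genes, 0.0448% of those tested, with 787 at an unadjusted p under 0.05. Itgb1bp2, melusin, changed by 1.64 ± 0.14 in emerin KO and 0.17 ± 0.18 in control, a difference of 1.47 ± 0.23 (adjusted p = 0.011). Igf2 changed by 1.96 ± 0.17 in emerin KO and 0.24 ± 0.21 in control, a difference of 1.71 ± 0.27 (adjusted p = 0.011). For Stbd1 the difference was 1.51 ± 0.26 (adjusted p = 0.024), from 1.68 ± 0.16 in emerin KO and 0.17 ± 0.20 in control. Apip, an enzyme of methionine salvage, gave 750.0, 780.4 and 771 on day 4, against 412, 398 and 643 on day 3 in emerin KO, and its change of 0.66 ± 0.15 there and -0.62 ± 0.18 in control differed by 1.28 ± 0.23 (adjusted p = 0.044). Its call within emerin KO ended with any of 5 emerin KO arrays left out and with the Gapdh ratio as a covariate (adjusted p = 0.14). Myh7 changed by -0.47 ± 0.22 in emerin KO, where it did not pass, and by 1.57 ± 0.27 in control, a difference of -2.04 ± 0.35 (adjusted p = 0.024). Against lamin A/C KO the difference passed for 3 genes, 0.0269%, with 711 at an unadjusted p under 0.05. Myh8 changed by 2.70 ± 0.18 in emerin KO and 1.18 ± 0.18 in lamin A/C KO, a difference of 1.53 ± 0.25 (adjusted p = 0.029). The difference was 1.28 ± 0.20 for Itgb1bp2 (adjusted p = 0.029), which changed by 0.36 ± 0.14 in lamin A/C KO. Car3, a carbonic anhydrase of slow fibers and adipocytes, gave 3069, 1816 and 2494 on day 4, against 3684, 3323 and 4777 on day 3 in emerin KO without passing (-0.68 ± 0.18, adjusted p = 0.065), and differed by -1.47 ± 0.25 (adjusted p = 0.029) from lamin A/C KO, where it changed by 0.79 ± 0.18. With 1 array left out the count against control ranged from 0, without control day 3 replicate 1, to 9, without emerin KO day 4 replicate 3, and the count against lamin A/C KO ranged from 0, without any of 7 arrays, to 17, without emerin KO day 4 replicate 2. No array of lamin A/C KO or control has a Gapdh ratio in the emerin KO day 3 range.

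The 3 days are given for the 7 genes whose change differed and for Myog, Postn and Sln, whose change did not pass a test of that difference. Itgb1bp2 averaged 3251 ± 789, 1468 ± 24.3 and 4637 ± 101 on days 0, 3 and 4 in emerin KO, 3838 ± 608, 2633 ± 297 and 3415 ± 582 in lamin A/C KO, and 3832 ± 10.5, 3096 ± 81.5 and 3479 ± 119.8 in control. Its day 3 mean in emerin KO was thus below, and its day 4 mean above, those of the other genotypes. Emerin KO minus control was -1.06 on day 3 (adjusted p = 1.6e-04), while the 0.41 on day 4 did not pass (adjusted p = 0.14). Igf2 averaged 606 ± 116, 1611 ± 300.0 and 6382 ± 1497 in emerin KO, 4081 ± 587, 4963 ± 575 and 9009.9 ± 1219 in lamin A/C KO, and 2182 ± 235, 7073 ± 275 and 8366 ± 63.9 in control. It was lowest in emerin KO on each day. Myh8 averaged 127 ± 3.61, 493 ± 122 and 3361 ± 585 in emerin KO, 648 ± 120.0, 1132 ± 163 and 2600.1 ± 374 in lamin A/C KO, and 203 ± 10.1, 1770.5 ± 22.8 and 4499.8 ± 861 in control, so that the day 4 mean of emerin KO lay between the other genotypes. Stbd1 averaged 471 ± 34.1, 266 ± 23.4 and 932 ± 186 in emerin KO, 1393 ± 154, 642 ± 112 and 1302 ± 217 in lamin A/C KO, and 1024 ± 114, 997 ± 147 and 1122 ± 33.4 in control. Its day 3 mean in emerin KO was the lowest of the 9. Apip averaged 1419 ± 55.4, 484 ± 138 and 767 ± 15.6 in emerin KO, 1062 ± 68.2, 671 ± 18.4 and 753 ± 91.4 in lamin A/C KO, and 1223 ± 95.4, 961 ± 54.9 and 617 ± 77.6 in control. Its day 4 mean in emerin KO was within 1 SD of that in lamin A/C KO. Myh7 averaged 7752 ± 886, 332 ± 59.8 and 235 ± 71.5 in emerin KO, 4795 ± 569, 232 ± 76 and 117 ± 6.8 in lamin A/C KO, and 7502 ± 828, 253 ± 2.33 and 842 ± 318 in control. All genotypes lay far under their day 0 means on both later days. Car3 averaged 25689.5 ± 1510.1, 3928 ± 757 and 2459.6 ± 627 in emerin KO, 21172 ± 3218, 3451 ± 182 and 6009 ± 824 in lamin A/C KO, and 19199 ± 3073, 4463 ± 810.0 and 7033 ± 567 in control. On day 4 its mean in emerin KO was the lowest of the 9. Myog averaged 245 ± 4.59, 8675 ± 924 and 4847 ± 222 in emerin KO, 881 ± 68, 5421 ± 959 and 3540.0 ± 795 in lamin A/C KO, and 556 ± 154, 3951 ± 441 and 3623 ± 385 in control, with the highest day 3 and day 4 means in emerin KO. Postn averaged 726 ± 255, 1759 ± 296 and 5003 ± 1655 in emerin KO, 3945 ± 706, 7939.8 ± 1408 and 14607 ± 859.9 in lamin A/C KO, and 2754 ± 225, 12939 ± 993 and 13137 ± 749 in control. After its rise the day 4 mean of Postn in emerin KO was still below the day 3 means of the others. Sln followed with 478 ± 151, 231 ± 28.6 and 1316 ± 381 in emerin KO, 6489 ± 1334, 1950.1 ± 179.7 and 4729 ± 663 in lamin A/C KO, and 689 ± 30.8, 3118 ± 395 and 5941 ± 43.1 in control. The skeletal muscle markers summed to 247415 to 262971 on the 2 day 0 arrays of emerin KO, above the sums on days 3 and 4.

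**Figure D5:**
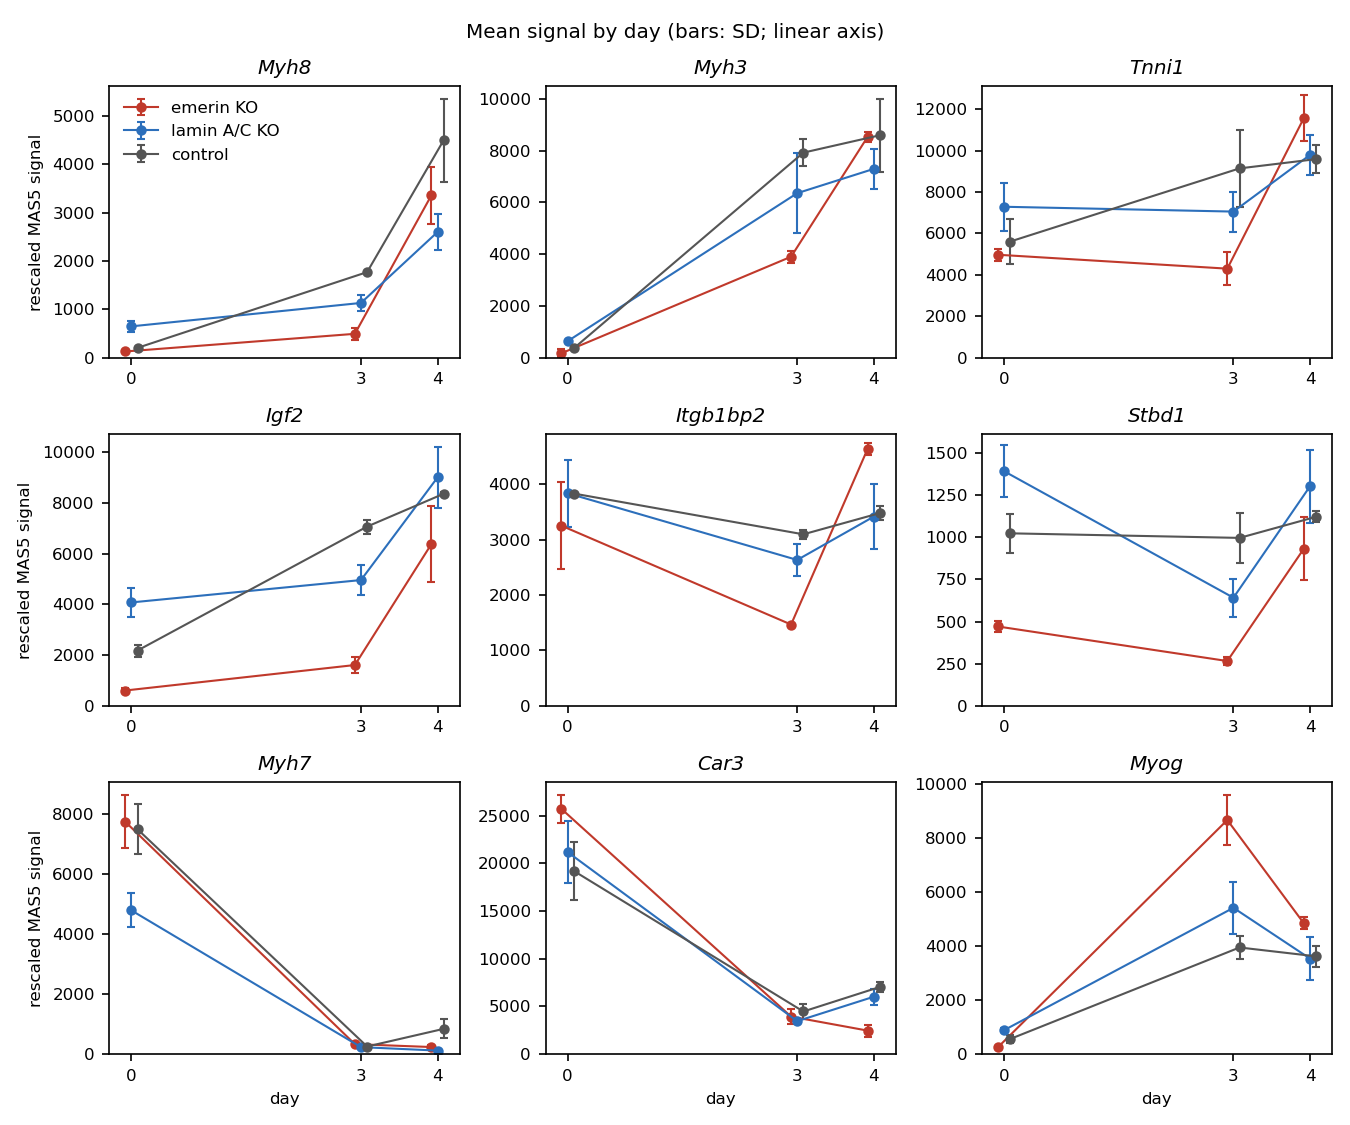
Mean rescaled MAS5 signal (vertical linear axes) on days 0, 3 and 4 (horizontal axes) for 9 genes in emerin KO, lamin A/C KO and control, with bars for the SD over 2 or 3 arrays. In emerin KO the day 4 mean of Myh8, Myh3, Tnni1, Igf2, Itgb1bp2 and Stbd1 lies above the day 3 mean, and that of Myog lies at 4847, against 8675 on day 3.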

How the data were processed

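RNA of gastrocnemius muscle was read on 23 Affymetrix arrays in 9 groups, assigned by title and description. The authors deposited 1 MAS5 signal (intensity, linear scale) per probe set and array, with the MAS5 tool named in the submitters' processing notes, of a version not given there. Multiplication by 3.332 brought all arrays to a 2% trimmed mean of 500, and values were analysed as log2(signal + 32). The brightest probe set stood for each gene, and the 11164 genes that reached 100 on 2 or more arrays were tested. Models were fitted with limma 3.58.1 (R 4.3.3, trend=TRUE) to all 9 groups together, so that the spread was estimated once, on 14 residual degrees of freedom, and p-values were adjusted by Benjamini-Hochberg within a comparison, with a threshold of 0.05. The fit was tested on simulated data. Precision is limited by the number of arrays.

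The genes compared, the 42 gene lists, the tests, the alternatives and the naming rule were chosen with earlier results of these data known, and the lists share members. Named by rule are the 15 largest rises and 15 largest falls whose arrays do not overlap, up to 5 genes each way of the other comparisons, up to 4 members of each described list, and Emd and Lmna. Probe sets with IDs ending in _s_at or _x_at may share signal with relatives: among the genes named these read Casq2, Rrm2, Nasp, Fbl, Phgdh, Stmn1, Ccn3, Shmt2 and Dlk1. The alternatives changed the scaling (quantile, median, or values as deposited), the pseudocount (1 and 100), the filter on low signal, the probe set rule (mean of all), the intensity trend (none) and the model (a replicate block, the Gapdh ratio as covariate, a fit of only the compared groups), or left out each array in turn. An alternative with day 4 replicate 3 as the only day 4 array was added after seeing the data. Promoters were matched by symbol to RefSeq windows on GRCm38.p6. Figures were drawn with matplotlib 3.10.9.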

Additional observations from a re-analysis of the deposited data

Results flagged for a closer look

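In the main fit the change between day 3 and day 4 differed between genotypes by its own test for 7 genes. Against control, the change in emerin KO differed by 1.71 for Igf2, 1.47 for Itgb1bp2, 1.51 for Stbd1, 1.28 for Apip and -2.04 for Myh7 on the log2 scale. Against lamin A/C KO it differed by 1.53 for Myh8, 1.28 for Itgb1bp2 and -1.47 for Car3. Itgb1bp2 is the gene that differed from both.

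The Gapdh 3'/5' signal ratio, which the main fit does not use, was 2.89, 1.40 and 5.30 on the day 4 arrays of emerin KO, against 4.79, 6.09 and 3.62 on the day 3 arrays, each above the control arrays, whose highest ratio was 1.23. With the ratio as a covariate 42 of 61 named genes with a call kept it. The falls that lost it were Scg3, Lmnb2, Srsf1, Nasp, Clec10a, Fbl, Phgdh, Stmn1 and Shmt2. The rises that lost it were Apip, Atp1b2, Cd81, Ache, Sgca, Cox7a1, Ccn3, Nr4a1, Dlk1 and Ptn. In that fit 101 genes passed between the days in emerin KO. Of the 131, 71 kept their call, as did 15 of the 15 largest rises and 8 of the 15 largest falls. With day 4 replicate 3 alone on day 4, 22 of the 131 kept it, among them 10 of the 15 largest rises and 0 of the 15 largest falls.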

How the results depend on the processing

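The count of 131 genes in emerin KO lay between 98 and 158 under quantile normalization, other pseudocounts, filters and probe set rules, no intensity trend, the Gapdh covariate and the replicate block, and was 80 with median scaling, 42 in a fit of the compared groups alone and 31 with day 4 replicate 3 as the only day 4 array, with all 131 directions kept in each. With 1 array left out it lay between 74 and 168. Control gave 1 gene with median scaling, with no intensity trend and in a fit of the compared groups alone, and 14 with the Gapdh covariate, and 1 to 10 with 1 array left out. Lamin A/C KO gave 137 with median scaling and with no intensity trend, 53 with the covariate and 380 with only the compared groups, and 56 to 177 with 1 array left out. The difference from control gave 8 genes with quantile normalization, 1 with median scaling, 0 with no intensity trend (limma, 787 at an unadjusted p under 0.05 in the main result), 9 with the covariate, 1 with only the compared groups and 2 with day 4 replicate 3 alone, and 0 to 9 with 1 array left out, moving by over 1.5 times without control day 3 replicates 1 and 2, control day 4 replicate 2, emerin KO day 3 replicate 1 and emerin KO day 4 replicates 2 and 3. The difference from lamin A/C KO gave 9 with quantile normalization, 5 with a pseudocount of 100, 14 with the covariate, 24 with day 4 replicate 3 alone and 0 with median scaling, no intensity trend or only the compared groups (711 at an unadjusted p under 0.05 in the main result), and 0 to 17 with 1 array left out, keeping its size only without emerin KO day 3 replicate 2, lamin A/C KO day 3 replicate 3 or lamin A/C KO day 4 replicate 2. With the covariate Emd differed from control by -1.57 on day 4, with an adjusted p of 0.12, and by -1.51 on day 3, with an adjusted p of 0.32, and with 1 array left out these were -1.71 to -1.49 and -2.0 to -1.31. The Gapdh ratio difference was -1.23 to -0.27 with 1 array left out. The replicate numbers do not pair the samples: correlations of same-numbered arrays were 0.038, 0.043 and -0.004, and the replicate block gave 149 genes in emerin KO, of which 127 are among the 131, and 9 for the difference from control. Of 61 named genes with a call 37 kept it without any 1 emerin KO array, among them 15 of the 15 largest rises and 5 of the 15 largest falls (Cd163, Rrm2, Cdh15, Celf1 and Ube2c). None turned direction under the alternatives run, among which leaving out arrays could not turn it. Why these counts move was not tested. Where signals lie near or under 100, as for Scg3, Mfap4 and Atp1b4, the size of the change is poorly set.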
